A study of Mus musculus with 6 samples.

Results

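The regions described here are stretches of mouse chromatin, inside protein-coding genes and away from gene ends, where a peak of acetylated histone H3 lysine 27 (H3K27ac) was called in sorted lung epithelium and none in sorted lung mesothelium. They were chosen by their peaks: after overlapping peaks of 4 libraries were merged, a region was kept when it held a peak of both epithelium libraries and of neither mesothelium library, lay more than 2 kb from both ends of every annotated gene, and had its midpoint in the body of a protein-coding gene. There were 2357 such regions among 132165 merged regions and among 3469 epithelium-only distal regions. They lay in 1553 genes, called host genes below, which were 7.1% of 21883 protein-coding genes. Because the peaks of all 4 libraries chose the regions, every difference between epithelium and mesothelium in these regions and their host genes is a description, and none was tested.

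H3K27ac is laid down by the acetyltransferases p300 and CBP and marks active promoters and active enhancers. Enhancers often sit in the introns of the gene they act on, but an intronic enhancer can also act on a neighbouring gene, so a host gene is a position and not a known target. The developing lung epithelium depends on NKX2-1, on FOXA and ETS factors and on FGF signals from the surrounding mesenchyme, while the mesothelium is the mesoderm-derived cell layer on the lung surface.

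The libraries were made by CUT&RUN, in which an antibody guides a nuclease to release the DNA around a chromatin mark, from lungs pooled at E16.5, a late stage of mouse gestation. All cells came from matings of Myrf Fl/Fl mice with no Cre recombinase named in the labels, and the series text calls them wildtype. Both sorts took live cells that bore podoplanin and lacked CD45 and CD31, and EPCAM separated epithelium, which bore it, from mesothelium, which did not. The sorted input was 100k and 200k cells for epithelium replicates 1 and 2, against 25k and 100k cells for mesothelium replicates 1 and 2, and no source says that the replicates were separate pools of lungs. The IgG control libraries were not analysed here. The 4 lists held 39006 to 47869 peaks on the chromosomes used, and read depth is unknown because the lists hold no counts.

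The labels were checked at marker genes before the regions were described. Of 8 epithelial markers, 5 and 8 had a peak within 1 kb of a gene end in epithelium replicates 1 and 2, and 1 and 1 in mesothelium replicates 1 and 2. Of 7 mesothelial markers, 0 and 1 had such a peak in epithelium and 3 and 6 in mesothelium. In mesothelium replicate 1, peaks covered 7.12 kb of the body of Cdh1, which encodes E-cadherin, and 6.48 kb of Grhl2, a grainyhead factor of epithelia, while mesothelium replicate 2 had no peak in either gene. A region that carries such a peak is not epithelium-only, and what this did to the number of regions was not tested. The body of Ptprc, the CD45 gene, carried 0.584 kb of peaks in epithelium replicate 2 and none in the other libraries. Of 5 endothelial, 5 immune and 5 mesenchymal markers, 0 to 1 of each kind had a gene-end peak in an epithelium library and 0 to 3 in a mesothelium library. None of these markers held an epithelium-only distal region. Of the epithelial markers, Cdh1 held 4 such regions and Grhl2 3, but Epcam, Nkx2-1, Foxa2, Krt8, Krt18 and Cldn7 held none either. In the gene bodies, Dock2, an immune marker, carried 1.78 and 1.53 kb of peaks in epithelium against none and 0.401 kb in mesothelium. The endothelial markers Erg (0.317 and 2.57 kb) and Cdh5 (0.378 and 0.835 kb) carried peaks in epithelium and none in mesothelium. The endothelial markers Pecam1 (4.361 and 1.525 kb), Tek (2.079 and 2.956 kb) and Kdr (0.023 and 0.408 kb) carried more in mesothelium. In epithelium Pecam1 had 0.325 and 0.923 kb, and Tek and Kdr had none. Of the 7 mesothelial markers, 4 and 7 had a body peak in mesothelium and 2 and 2 in epithelium. Msln, 1 of these, carried 0.376 and 1.471 kb in epithelium against none and 0.893 kb in mesothelium.

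A few of the regions held an annotated transcription start inside the gene. RefSeq start sites (GRCm38.p6, the assembly of mm10) were looked up for 2269 of the regions, those on chromosomes that the start table covers, and 26 of the 2269 held a start, 24 of them a start of a coding gene. That was 1.15% of the regions (exact binomial 95% interval 0.750 to 1.67%, counting error only), against 2.13% of the mesothelium-only distal regions inside genes (40 of 1879) and 8.90% of the distal regions inside genes that had peaks in all 4 libraries (138 of 1550). Nearly all of the epithelium-only regions thus lay away from every start in that table, which is not complete. The difference between the classes was not tested, and the shared regions were wider, with a median of 3649 bp against 1601 bp.

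The 250 bases before the internal start are shown for 6 of these regions, because these are region sequences that the start table holds and because 5 of the genes belong to the gene lists used below. They are Lamb3, a laminin chain of epithelial basement membrane, Elf5, an ETS factor of lung epithelium, Itgb6, an epithelial integrin chain, Rarg, a retinoic acid receptor, and Sema4d, a semaphorin. Cyp3a13, a cytochrome P450 gene, is the sixth, chosen after its sequence was seen because it held the NKX2-1 letters. Each sequence is RefSeq's, on the mm10 coordinates given, and runs 5′ to 3′ on the strand of the gene. Capitals mark a match to 1 of the motifs named after the sequences.
Lamb3, chr1:193301744-193301993, plus strand: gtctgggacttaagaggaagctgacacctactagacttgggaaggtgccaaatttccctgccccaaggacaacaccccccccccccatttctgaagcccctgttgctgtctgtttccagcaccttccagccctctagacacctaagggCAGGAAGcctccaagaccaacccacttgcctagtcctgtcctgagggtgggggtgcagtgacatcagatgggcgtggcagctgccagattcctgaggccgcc
Elf5, chr2:103423818-103424067, plus strand: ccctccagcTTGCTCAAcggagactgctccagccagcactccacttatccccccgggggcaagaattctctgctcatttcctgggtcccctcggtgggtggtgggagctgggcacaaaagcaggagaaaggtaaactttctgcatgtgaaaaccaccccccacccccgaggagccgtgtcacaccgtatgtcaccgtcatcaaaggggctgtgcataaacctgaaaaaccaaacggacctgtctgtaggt
Itgb6, chr2:60673694-60673943, minus strand: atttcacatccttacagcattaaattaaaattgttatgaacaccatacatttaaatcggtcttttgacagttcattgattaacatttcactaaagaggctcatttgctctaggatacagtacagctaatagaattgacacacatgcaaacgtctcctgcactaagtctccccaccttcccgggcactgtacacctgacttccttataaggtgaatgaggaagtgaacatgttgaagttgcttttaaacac
Rarg, chr15:102246501-102246750, minus strand: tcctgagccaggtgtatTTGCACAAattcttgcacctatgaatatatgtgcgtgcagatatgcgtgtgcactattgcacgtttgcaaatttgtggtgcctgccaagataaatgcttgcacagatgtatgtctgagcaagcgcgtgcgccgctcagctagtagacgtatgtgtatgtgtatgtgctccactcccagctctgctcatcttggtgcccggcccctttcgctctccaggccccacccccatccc
Sema4d, chr13:51748811-51749060, minus strand: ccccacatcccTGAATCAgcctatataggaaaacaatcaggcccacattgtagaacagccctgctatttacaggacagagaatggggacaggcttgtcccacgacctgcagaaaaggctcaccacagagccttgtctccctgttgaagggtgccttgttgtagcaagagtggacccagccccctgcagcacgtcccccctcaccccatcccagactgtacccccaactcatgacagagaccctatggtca
Cyp3a13, chr5:137921620-137921869, minus strand: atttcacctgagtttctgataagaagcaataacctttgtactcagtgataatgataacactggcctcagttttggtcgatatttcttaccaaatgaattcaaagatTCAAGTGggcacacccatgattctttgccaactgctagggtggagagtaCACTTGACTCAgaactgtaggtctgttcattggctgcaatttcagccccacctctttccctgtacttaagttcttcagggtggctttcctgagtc
Both strands were searched for 13 motifs of factors active in lung epithelium or mesothelium. In the sequence of Cyp3a13, an NKX2-1 match and an AP-1 match overlap. The ETS match of Lamb3, the CEBP matches of Elf5 and Rarg and the AP-1 match of Sema4d are the other capitals, and the Itgb6 sequence held no match. The AP-1 letters, TGANTCA, were present in 6 of 29 such windows of coding genes (20.7%), against 6.13% of all 21262 windows of coding genes of the same length. The CEBP letters, TTGCNNAA, were present in 6 of 29 windows (20.7%) against 9.09%, and the ETS letters, CAGGAAG, in 5 of 29 (17.2%) against 10.2%. The NKX2-1 letters, TCAAGTG, were found in 1 window of 29, against 2.59% of all windows. The FOXA letters, TGTTTAC, were found in 2, against 2.62%. For TEAD the letters were GGAATGT, found in 1 window and in 2.84% of all windows. The letters searched for MEIS, TGACAGC, were likewise found in 1 window, against 4.46% of all. No window among the 29 held the GRHL letters, AACCNGTT, which 1.70% of all coding windows held. None held the SOX letters, CATTGTC, against 2.09% of all windows. The KLF letters, CCACACCC, were also not found among them, against 3.32% of all windows. The same was true of the GATA letters, AGATAAG, which 2.45% of all windows held, and of the longer NFI and HNF1 motifs. Some genes have windows that overlap each other, so the 29 windows are not independent, and a match is not a bound site.

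Epithelium-only regions were the most frequent class of distal regions inside genes that had peaks in more than 1 library. They made up 3.45% of the 68337 distal regions inside genes, most of which had a peak in a single library. There were 1954 mesothelium-only regions at such positions and 1601 with peaks in all 4 libraries. Regions with a peak in exactly 1 library of each cell type numbered 957, 1020, 1095 and 1187 for the 4 combinations of libraries. Epithelium-only regions were thus 54.7% of the cell-type-only distal regions inside genes (exact binomial 95% interval 53.2 to 56.2%, counting error only). The epithelium lists were longer, and with equal numbers of peaks in each library that share was 48.5% and there were 1884 epithelium-only regions.

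**Figure D1:**
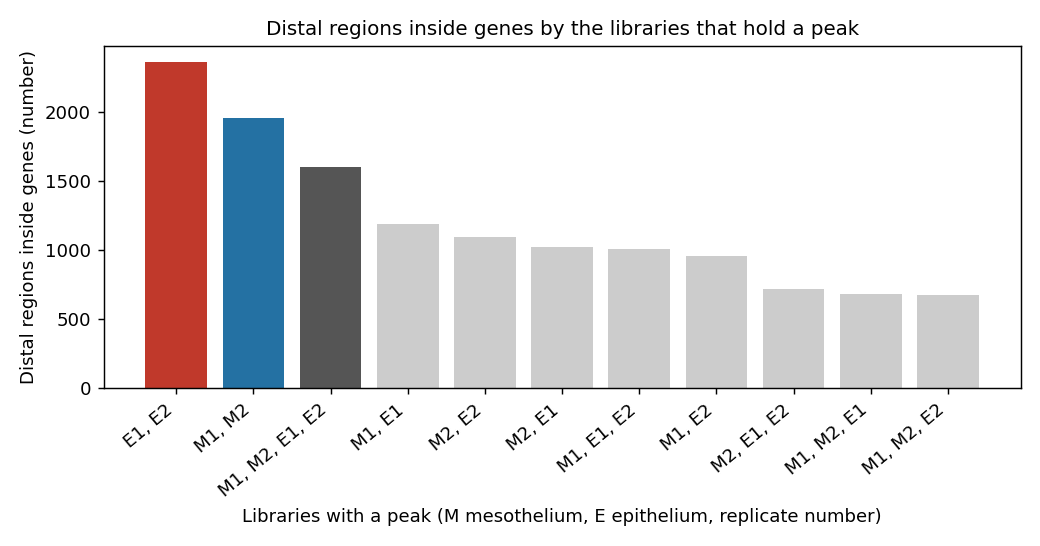
Number of distal regions inside genes (vertical axis) by the libraries that hold a peak (horizontal axis), for regions with a peak in at least 2 libraries. The epithelium-only bar stands at 2357, above the mesothelium-only bar at 1954, and the 4 bars with 1 library of each cell type stand between 957 and 1187.

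For the strongest peak of each region, the median −log10 q was 1.67 in epithelium replicate 1 and 1.67 in epithelium replicate 2. Over all peaks of these lists the medians were 1.56 and 1.56, and the lowest values were 1.02 and 1.03. The number of regions depended on the peaks admitted. With a −log10 q of at least 2 in each peak used, 428 epithelium-only regions in 374 host genes were left and were 34.2% of the cell-type-only ones. With at least 4 there were 3, and with peaks of at least 1 kb 1041. When 1 epithelium library is left out, a peak in the other is enough, and there were 17454 regions without epithelium replicate 1 and 17815 without epithelium replicate 2. Without mesothelium replicate 1 or 2 there were 3363 or 3070.

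Inside genes, 67.9% of epithelium-only distal regions were found (2357 of 3469, exact binomial 95% interval 66.4 to 69.5%). The same share was 77.1% for mesothelium-only distal regions (1954 of 2534) and 85.0% for distal regions with peaks in all 4 libraries (1883 regions). In the 4 combinations of 1 library from each cell type it lay between 79.6% and 84.1%, and among regions with a peak in 1 library it lay between 57.5% and 62.6%. Epithelium-only distal regions therefore lay between genes more often than the other classes with peaks in more than 1 library. Regions are not replicates, and this difference was not tested.

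The regions were short and covered only in part by both libraries. Their median width was 1601 bp, with quartiles of 1055 and 2290 bp and a range from 333 to 10423 bp, and together they spanned 4.28 Mb. Epithelium replicate 1 covered a median of 1008 bp and replicate 2 a median of 954 bp. Both covered a median of 452 bp, and 33.5% of all bases in the regions lay under a peak of both. In 4 regions the peaks of the 2 libraries touched without sharing a base, and in 156 a library covered under 20% of the region. Mesothelium-only regions at such positions were alike in these measures, with a median width of 1588 bp and 32.7% of bases under both libraries.

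Peak strength was taken from the authors' fold enrichment over background. It had a median of 3.56 in epithelium replicate 1 and 3.58 in replicate 2 for the strongest peak of each region. The medians over the whole lists were 3.47 and 3.48. Across the regions, the log2 fold enrichments in the 2 libraries had a Pearson correlation of 0.08 over 2357 regions, given as a description over regions that share both libraries. The order of the regions by strength in one library therefore said little about their order in the other. In replicate 1, 698 regions had a −log10 q of 2 or more, in replicate 2 there were 683, and 236 had it in both. A value of 4 or more was seen in 25 and 32 regions, and in both libraries for 1, that of Lamb3.

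The regions strongest in both libraries were ranked by the smaller of their 2 fold enrichments. The Lamb3 region (chromosome 1, 193300572 to 193302742, mm10) came first, with 5.74 in replicate 1 and 5.47 in replicate 2, 2.17 and 0.938 kb under peaks, and the internal start shown above. The Birc6 region (chromosome 17, 74574179 to 74574896) had 5.22 and 6.77. Birc6 encodes a large inhibitor of apoptosis. The region of Capn8, a calpain protease gene (chromosome 1, 182574030 to 182575106), had 5.64 and 5.06. Regions of Ppm1l, Slc11a2, Shroom3, Ppfibp2, Tead1 and Traf3 were also among the 10 highest. Slc11a2 encodes an iron transporter, and its fold enrichments were 6.92 and 4.88. Tead1, a DNA-binding partner of the Hippo effectors YAP and TAZ, had 4.75 and 5.23. Shroom3, which shapes the apical side of epithelial cells, had 4.83 and 5.26. These values exceed the medians of 3.56 and 3.58 in both libraries because they were ranked by that measure.

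The widest regions were 10.4 to 6.45 kb wide and mostly longer in 1 library than in the other. The first lay in Zfp608, a zinc-finger gene, with 9.29 kb under peaks in epithelium replicate 1 and 2.27 kb in replicate 2. The second, in the phospholipid flippase gene Atp8a1 (chromosome 5, 67836384 to 67845190), had 7.87 and 6.47 kb, of which 5.52 kb lay under both. The gene Fgfr2, which encodes the receptor for FGF7 and FGF10 in lung epithelium, held 2 of the 10 widest: 8.55 kb (chromosome 7, 130219242 to 130227794) with 8.40 and 3.84 kb under peaks, and 7.02 kb (130248860 to 130255878) with 7.02 and 3.10 kb. Spint2, an inhibitor of the serine proteases of epithelial surfaces, held 7.97 kb with 4.76 and 5.37 kb. Znrf3, a ubiquitin ligase that removes WNT receptors, held 7.37 kb with 5.31 and 3.91 kb. Regions of Aoah, 0610040J01Rik, Pbx3 and Pawr completed the 10. Pbx3, a homeodomain factor, had the least even pair after Zfp608, with 6.55 and 1.71 kb.

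The regions lay along the whole length of their genes. For 1865 regions in a single host gene of known strand, the median midpoint was 48.4% of the way from the 5′ to the 3′ end, with 34.0% in the 5′-most of 3 equal parts of the gene and 30.3% in the 3′-most. Distal regions with peaks in all 4 libraries lay nearer the 5′ end, with 36.4% and 22.5% in these parts, and mesothelium-only ones were spread much as the epithelium-only ones, with 33.6% and 30.9%. The rule keeps regions more than 2 kb from gene ends, and just inside it were regions of Zdhhc1 and Adgrg3 at 2006 bp. Just outside were regions of Rassf4 at 1999 bp and of Kmt2c at 1997 bp. The X chromosome held 30 of the regions, 0.657 per Mb of coding gene body against 1.805 to 2.843 on the autosomes, and mesothelium-only regions were also sparse there (0.307 per Mb against 1.894 over all chromosomes).

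Host genes were long. Their median length was 99.0 kb against 17.2 kb for all coding genes, and 72.0% of them belonged to the longest of 5 equal classes of coding genes. In that class (57.1 kb and longer) 25.5% of genes were hosts, in the next 7.54%, in the middle class 2.24% and in the shortest none. Genes with mesothelium-only distal regions were as long, with a median of 99.7 kb, and made up 22.9% of that longest class. A count of host genes in a list therefore has to be read with gene length, and densities per Mb of gene are given below. Most hosts held 1 region (1118 genes), 264 held 2, and 171 held 3 or more, which together held 724 of the regions. In 21 cases the midpoint lay in more than 1 coding gene: the 5 regions of Timp3, for example, also lie in Syn3.

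Mecom and Nckap5 held the most regions, 15 each. Mecom encodes a zinc-finger factor also known as EVI1, and its body was covered by 99.0 and 88.2 kb of peaks in epithelium replicates 1 and 2 and by 10.8 and 6.27 kb in mesothelium replicates 1 and 2. Its regions lay from 41.6 to 526 kb behind its 5′ end. The strongest, at 295 kb (chromosome 3, 30213905 to 30214896), had fold enrichments of 4.53 and 5.82. The widest, 5.02 kb at 301 kb (chromosome 3, 30205977 to 30210992), had 3.28 and 4.13.

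Of the others among the 10 hosts with the most regions, several encode transcription factors. Prdm16, which like Mecom encodes a PR-domain zinc-finger protein, held 9 regions, with 39.5 and 40.5 kb under peaks in epithelium and 3.74 and 0.349 kb in mesothelium. Sox6, an HMG-box factor, held 9, with 40.1 and 37.2 kb in epithelium against 10.6 and 13.9 kb, and also held 2 mesothelium-only regions. Zfhx3, a zinc-finger homeodomain factor, held 8, with 23.7 and 35.6 kb against 13.3 and 8.13 kb. Nckap5 had 66.9 and 76.7 kb in epithelium against 11.9 and 2.72 kb in mesothelium, and like Zfhx3 it also held 1 mesothelium-only region. Epithelium was higher in both libraries for each of these genes.

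The remaining hosts of this group belong to several kinds. Ctnnd2, which encodes delta-catenin, a partner of cadherins, held 14 regions, with 77.0 and 70.5 kb in epithelium against 11.9 and 9.50 kb in mesothelium. App, the amyloid precursor gene, held 11, beside 9 distal regions with peaks in all libraries, with 56.1 and 62.1 kb against 20.4 and 29.4 kb. Ptprm, a receptor tyrosine phosphatase of cell contacts, also held 11, with 46.4 and 40.4 kb against 14.0 and 5.22 kb, and 1 mesothelium-only region. Slc22a23, a solute carrier gene, held 9 within 166 kb, with 23.97 and 20.2 kb against 0.976 and 4.26 kb. Hipk2, a nuclear kinase, held 8, with 55.7 and 46.0 kb against 18.7 and 3.95 kb. In all 10 hosts both epithelium lengths exceeded both mesothelium lengths, as they did in 874 of the 1553 hosts and in 18.0% of the 14051 coding genes with any peak in the body. The choice of the hosts favours that order, so nothing is read from it.

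**Figure D2:**
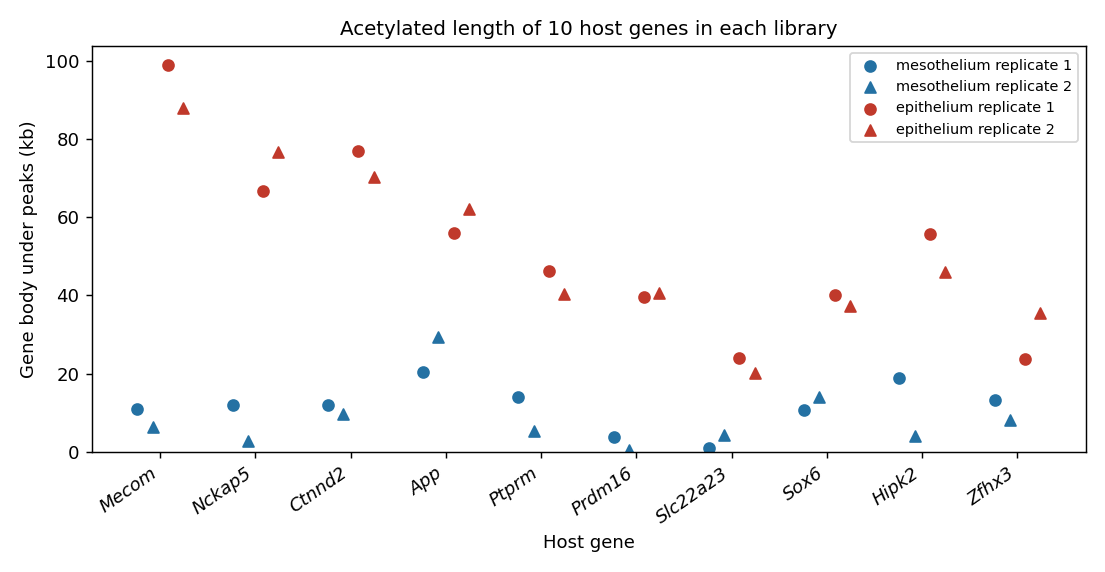
Kilobases of the gene body under peaks (vertical axis) in each library for the 10 host genes with the most epithelium-only distal regions (horizontal axis); circles are replicate 1 and triangles replicate 2. In each gene both epithelium points lie above both mesothelium points, from 99.0 and 88.2 kb in Mecom down to 23.97 and 20.2 kb in Slc22a23.

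**Figure D3:**
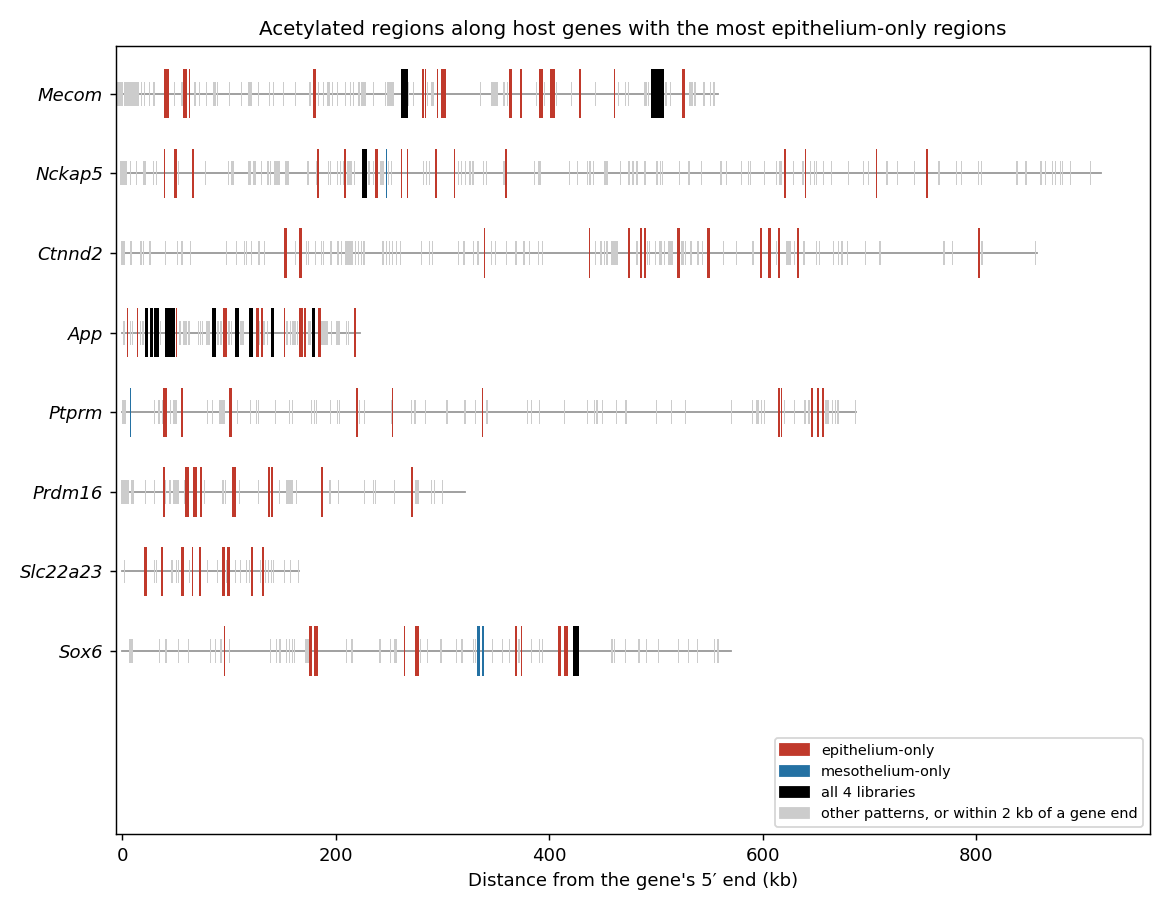
Merged regions along 8 host genes, each drawn from its 5′ end (horizontal axis, distance in kb; rows are genes; regions under 0.8 kb are drawn at 0.8 kb). Red bars are epithelium-only distal regions, 15 in Mecom and 9 in Sox6, and they lie along the gene among mesothelium-only regions (blue), regions of all 4 libraries (black) and regions of other patterns or near gene ends (grey).

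Genes for lung epithelial transcription factors held many regions for their length. Of 38 such genes, 16 were hosts (42.1%, against 7.1% of all coding genes) and 6 held mesothelium-only distal regions. The list held 59 epithelium-only regions, 15.2 per Mb of gene, against 2.27 per Mb over all coding genes, and 12 mesothelium-only regions, 3.09 per Mb against 1.87. Mecom and Prdm16 gave 24 of the 59. The list's median gene length was 27.5 kb. This list and those below were chosen with earlier results of these data known, and no list was tested.

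Among these factors, Foxp2 held 5 regions, Foxp1 4 and Foxp4 3; FOXP factors repress transcription in lung epithelium. Etv5, an ETS factor that FGF signals induce, held 3 regions, with epithelium peaks over 12.7 and 8.66 kb; mesothelium replicate 1 had 0.885 kb and replicate 2 none. Its widest region was 3.96 kb (chromosome 16, 22427846 to 22431804), where the 2 libraries shared 0.271 kb. Grhl2 also held 3 regions, the strongest of them with fold enrichments of 4.69 and 4.23 (chromosome 15, 37240870 to 37243682). Elf5 held 2, and Ehf, Klf5, Ovol2 and Nfib 1 each. Nfib held more mesothelium-only regions, 5, and Foxp1 also held 2 of these. Nfia, which held 4, went the other way in total length, with 33.4 and 28.2 kb in epithelium against 71.3 and 45.7 kb in mesothelium, and it also held 2 mesothelium-only regions. The Foxp2 body lay under 54.9 and 47.1 kb of epithelium peaks and 26.9 and 21.7 kb of mesothelium peaks.

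Genes of epithelial junctions, polarity and basement membrane were hosts in 17 of 56 cases, with 43 regions, or 8.93 per Mb, against 6 mesothelium-only regions, or 1.25 per Mb. Cdh1 held 4 regions in 66.9 kb and its body lay under peaks for 18.1 and 25.1 kb in the epithelium libraries; mesothelium replicate 1 had 7.12 kb and replicate 2 none. Its strongest region in replicate 2 (chromosome 8, 106645560 to 106648895) had fold enrichments of 3.76 and 5.47. Lama3, another laminin chain of epithelial basement membrane, held 5 regions, with 26.4 and 27.6 kb against 6.09 and 2.56 kb. Arhgef28, a guanine nucleotide exchange factor gene, held 6, with 18.9 and 16.3 kb against 0.756 and 0.870 kb. Pard3, a polarity protein gene, held 5, Magi1 and Shroom3 4 each, and Ocln, which encodes occludin, 3.

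The alveolar and airway lists held from 3.43 to 9.50 regions per Mb. Of 24 type 1 genes 9 were hosts, with 9.50 regions per Mb. Of 26 type 2 and surfactant genes 3 were hosts, with 4.35 per Mb, and of 27 airway genes 4, with 3.43 per Mb. The host shares were 37.5%, 11.5% and 14.8%, against 7.1% of all coding genes with 2.27 regions per Mb. Mesothelium-only regions lay in 3 type 1 genes (5 regions), no type 2 gene and 4 airway genes (4 regions). The median gene lengths of the 3 lists were 37.0, 20.5 and 16.6 kb. By the length under peaks the order differed: both epithelium libraries exceeded both mesothelium libraries in 11 of 20 type 2 genes with a peak in the body (55.0%), in 8 of 22 type 1 genes (36.4%) and in 4 of 17 airway genes (23.5%). The share over all 14051 coding genes with a peak in the body was 18.0%, near that of the airway genes. Both mesothelium libraries were higher in 17.65% of these airway genes, 4.5% of the type 1 genes and none of the type 2 genes. Among the type 1 genes, Timp3, an inhibitor of metalloproteinases, held the 5 regions it shares with Syn3, Lmo7 and Sema3e held 4 each and Itgb6 2. Pdpn, the marker of both sorts, held 1 region (chromosome 4, 143281242 to 143282622), with 1.25 and 0.394 kb under peaks. Among the airway genes Cftr, the chloride channel gene, held 3, the strongest with 4.57 and 6.29 (chromosome 6, 18310600 to 18311761). Epcam, at 15.1 kb, held none.

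Channel and transporter genes of fluid secretion and absorption, which set the liquid volume of the fetal lung, were hosts in 9 of 22 cases. They held 20 epithelium-only regions, 8.04 per Mb, and 2 mesothelium-only regions, both in Kcnq1. Atp8a1 held 6 of the 20, with 35.4 and 33.9 kb in epithelium against 5.00 and 3.01 kb in mesothelium. It is the phospholipid flippase gene named above and not an ion channel or ion transporter gene. The density of the list without it was not computed. Slc4a4, a sodium bicarbonate cotransporter gene, held 5, with 18.3 and 15.5 kb against 4.32 and 4.22 kb. Slc12a2, the chloride importer of secreting epithelia, held 1, with 24.5 and 19.4 kb against 6.63 and 1.81 kb. Of 23 genes for nuclear receptors and their partners 6 were hosts (26.1%, against 7.1% of all coding genes). These genes were long, with a median of 71.9 kb against 17.2 kb. They held 3.39 epithelium-only regions per Mb, against 2.27 over all coding genes. Ncoa2 held 3 regions and also 1 mesothelium-only region, with 30.5 and 21.5 kb in epithelium against 21.3 and 20.4 kb in mesothelium.

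Signalling genes differed in which cell type's regions they held. The FGF list was the densest of all, with 20 epithelium-only regions, or 21.7 per Mb, in 5 of 21 genes, and it held 4 mesothelium-only regions, 4.33 per Mb, in Frs2 and Fgf2. Fgfr2 held 7 of them in 104 kb, with 34.3 and 33.1 kb under peaks in epithelium against 4.48 and 3.96 kb in mesothelium. The ligand gene Fgf1 held 3, all of which also lie in Arhgap26, the gene around it. The feedback inhibitors Spred1 and Spred2 held 3 and 4, and Spred2 carried 16.2 and 14.7 kb against 4.52 and 7.31 kb. Notch genes held 13 regions in 5 of 21 genes, 7 of them in the co-activator gene Maml3, and 2 mesothelium-only regions.

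In the WNT list 11 of 40 genes were hosts, with 6.35 regions per Mb against 2.82 mesothelium-only regions. Znrf3 held 5 regions, with 37.3 and 34.7 kb in epithelium against 10.7 and 12.8 kb in mesothelium. The ligand gene Wnt7b, expressed by lung epithelium, held 2 regions, with 12.4 and 12.2 kb against no peak and 1.496 kb. Hippo genes held nearly as many regions of either kind, 5.98 epithelium-only and 5.48 mesothelium-only per Mb, and 15.9 per Mb in all 4 libraries. Tead1 had 5 epithelium-only and 3 mesothelium-only regions. Semaphorin, plexin, ephrin and receptor genes were hosts in 12 of 30 cases, with 28 epithelium-only regions, or 6.67 per Mb. In this list 8 genes held 14 mesothelium-only regions, or 3.33 per Mb, among them Sema3c with 4 and Sema3a with 3. All coding genes held 2.27 epithelium-only and 1.87 mesothelium-only regions per Mb. Epha4 held 6 epithelium-only regions, and its epithelium peaks spanned 14.2 and 22.8 kb and its mesothelium peaks 0.783 kb in replicate 1 only.

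The hedgehog, TGF-beta and BMP, and retinoic acid lists held more mesothelium-only than epithelium-only regions. Hedgehog genes held 7 epithelium-only and 15 mesothelium-only regions. Shh, the ligand made by lung epithelium, held 1 epithelium-only region (chromosome 5, 28460829 to 28464007) with 3.18 and 1.61 kb under peaks, and Gli3, a transcription factor of the pathway, held 4 epithelium-only and 3 mesothelium-only regions. TGF-beta and BMP genes held 7 and 19, with 6 of 33 genes as hosts. Retinoic acid genes held 2 and 6, and the epithelium-only ones lay in Rarg and Rarb. ERBB genes held 3 and 0, with 2 regions in the ligand gene Tgfa. Their epithelium-only density was 0.736 per Mb, below the 2.27 per Mb of all coding genes. Hedgehog genes held 6.22 epithelium-only and 13.3 mesothelium-only regions per Mb. For TGF-beta and BMP genes the densities were 2.62 and 7.12, and for retinoic acid genes 1.48 and 4.45. All coding genes held 2.27 and 1.87.

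Genes of other cell types together held 0.565 epithelium-only regions per Mb, below the 2.27 per Mb of all coding genes. Their mesothelium-only density was also lower, 0.995 against 1.87 per Mb, and neuronal genes made up 30.7 of their 37.2 Mb. Of these genes of other cell types, 9.70% were hosts, against 7.1% of all coding genes. None of 24 endothelial genes was a host, and of 30 mesenchymal genes 1 was, Fn1, which encodes fibronectin. Of 24 immune genes Runx1, a RUNT-domain factor, was a host with 2 regions and carried 11.8 and 24.5 kb in epithelium against 2.87 and 0.369 kb in mesothelium. Of 28 mesothelial genes 2 were hosts, Ezr with 2 regions and Gata6 with 1, both of which are also expressed in epithelia, while 9 held mesothelium-only regions. Neuronal genes were long: 9 of 30 were hosts (30.0%), but their median length was 1079 kb and their density 0.488 per Mb. Myrf, the gene the series is about, held 1 region (chromosome 19, 10225071 to 10227752), in which the peaks of the 2 libraries, 1.49 and 1.23 kb, shared 0.038 kb. Elsewhere in the Myrf body, mesothelium replicate 2 had 1.53 kb under peaks, more than either epithelium library, and mesothelium replicate 1 had none.

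**Figure D4:**
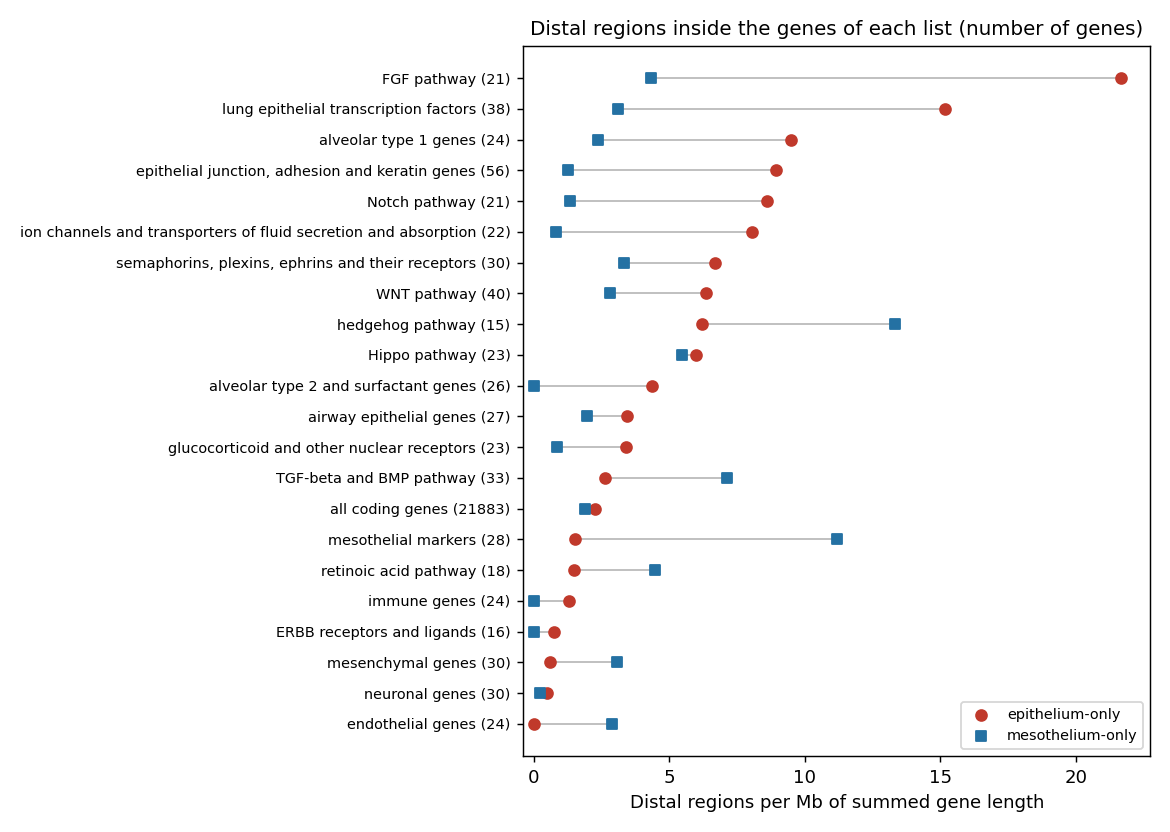
Distal regions per Mb of summed gene length (horizontal axis) for each gene list, with the number of genes in brackets; circles are epithelium-only and squares mesothelium-only regions. The FGF list (21.7 per Mb) and the list of lung epithelial transcription factors (15.2 per Mb) lie farthest to the right for epithelium-only regions, and the hedgehog list (13.3 per Mb) for mesothelium-only regions.

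Host shares were recomputed with other peaks admitted for 2 pools of lists, and not for single lists or for densities. Of the 165 genes of the 5 epithelial lists, 48 were hosts (29.1%), against 13 of 134 genes of other cell types (9.70%). With a −log10 q of at least 2 the shares were 12.7% and 3.73%, against 1.71% of all coding genes, and after every list was cut to the same number of peaks 25.5% and 6.72%, against 5.96%. With only 1 epithelium library required they were 54.5% and 41.8% without epithelium replicate 1, and 52.7% and 44.0% without epithelium replicate 2, against 28.6% of all coding genes in either case.

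Some genes held regions of both cell types. Of the 1553 hosts, 391 (25.2%) also held a mesothelium-only distal region, and these were 29.0% of the 1346 genes with such regions (6.15% of coding genes). The genes with both were long, with a median of 159.7 kb. Rad51b, a DNA repair gene of 551 kb, held 3 epithelium-only and 10 mesothelium-only regions, with 61.9 and 46.3 kb under epithelium peaks and 62.5 and 67.9 kb under mesothelium peaks, both of the latter higher. Rbms3, an RNA-binding protein gene, held 2 and 8, with 28.0 and 30.7 kb against 41.1 and 45.3 kb. Zfp521, a zinc-finger gene, and Cwc27 held 4 and 6 each, Tasp1 2 and 7, and Rgl1 1 and 7. In these 6 genes both mesothelium lengths exceeded both epithelium lengths. The same held in 8.95% of all hosts and in 17.7% of the 14051 coding genes with any peak in the body. These 6 were chosen for holding the most mesothelium-only regions, which favours that order, so nothing is read from it.

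Peaks at the ends of the host genes were mostly not restricted to epithelium. Both epithelium libraries had a peak no more than 1 kb from a gene end at 34.2% of hosts (531 of 1553, exact binomial 95% interval 31.8 to 36.6%), against 17.4% of all coding genes. Both mesothelium libraries had one at 29.9% of hosts, against 20.7% of all coding genes. All 4 libraries had one at 17.8% of hosts, against 10.9% of all coding genes. An epithelium-only pattern at the gene ends was found for 91 hosts (5.86%), against 2.01% of all coding genes, and for 21 of the 171 hosts with 3 or more regions (12.3%). No library had a gene-end peak at 382 hosts (24.6%, against 50.5% of all coding genes), among them App, Sox6 and Zfhx3. Of genes with a mesothelium-only region, 31.4% had such a peak in both epithelium libraries, 39.3% in both mesothelium libraries and 21.4% in all 4. The epithelium-only pattern was found for 2.15% of them, and 21.5% had no gene-end peak in any library. Host genes with an epithelium-only pattern at the gene ends included Nckap5, Prdm16, Fgfr2, Lama3, Rbm47, an RNA-binding protein gene with 6 regions, and Limch1 with 5. Inside its body Nckap5 also held 1 mesothelium-only distal region, and Nckap5 and Rbm47 each held 1 with peaks in all 4 libraries. Rbm47 carried 27.7 and 28.4 kb in epithelium against 3.02 and 1.46 kb in mesothelium, and Limch1 32.6 and 21.7 kb against 3.07 and 1.27 kb. Gene ends here are the outermost ends in the RefSeq table, so a start inside a gene is not counted, and these shares were not tested.

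**Figure D5:**
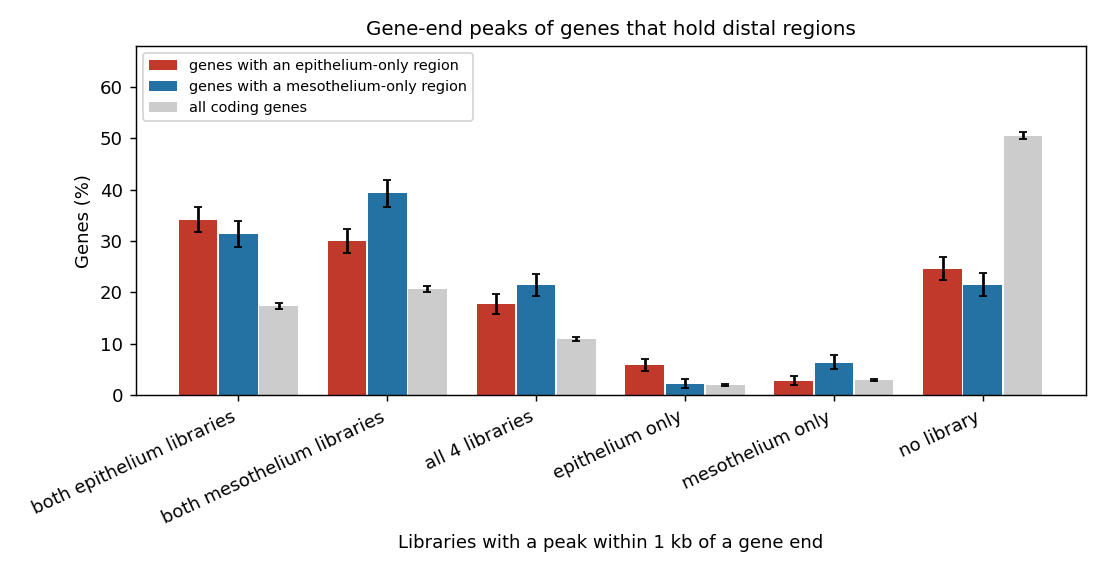
Share of genes (vertical axis, %) with a peak within 1 kb of a gene end, by the libraries that have one (horizontal axis), for genes with an epithelium-only distal region, genes with a mesothelium-only distal region and all coding genes; error bars are exact binomial 95% intervals of counting error. Host genes of epithelium-only regions stand at 5.86% for the epithelium-only pattern and at 24.6% for no peak in any library, against 2.01% and 50.5% of all coding genes. Genes with a mesothelium-only region stand at 2.15% and 21.5%.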

How the data were processed

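H3K27ac CUT&RUN peak lists of 2 mesothelium and 2 epithelium libraries were analysed, grouped by the sample titles. Per the submitters' processing notes, the tools were MACS2 2.2.9.1, Bowtie2 2.5.3, bedtools 2.31.1, cutadapt 4.8, DiffBind 3.6.5, deepTools 3.5.5, FastQC, HOMER and edgeR, with the build mm10 and no stated role or order. Whether a control was used in peak calling, and at what threshold, is not given in the sources used here. The authors deposited 1 list of broad peaks per library, without pooling. The deposited ratio is a peak's fold enrichment over background, its −log10 p and −log10 q, also deposited, give its confidence, and the deposited score, 10 times the −log10 q, was not used. A list holds only peaks above the caller's minimum (−log10 q of 1.00 to 1.03), so a missing peak is not missing acetylation.

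Peaks of the autosomes (1 to 19) and of X and Y that overlapped or touched were merged, and an overlap of 1 bp counted as presence. Genes came from a RefSeq table of GRCm38.p6. Of the hosts, 1236 were in the RefSeq start table, which gave the strand. All 544 genes of 21 lists matched. The members and lists were chosen with earlier results of these data known. Named genes were the 10 hosts with the most regions, the 10 widest and 10 strongest regions, up to 5 hosts per list, the sort markers and Myrf, and up to 6 hosts each with most mesothelium-only regions or an epithelium-only gene end; other genes were named after their values were seen, and 1 of the strongest regions is not reported here. No test was made: the rule used all 4 libraries, and 2 libraries against 2 allow 3 splits. Interval code was tested on simulated intervals. Scripts used scipy 1.17.1, numpy 2.4.6, pandas 2.3.3 and matplotlib 3.10.9 in Python 3.11.15.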

Additional observations from a re-analysis of the deposited data

How the results depend on the processing

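Of 48 values recomputed under other choices of peaks, merging, distance and gene ends, 27 stayed within 1.5 times the main count or inside the main share's exact binomial interval. Requiring 200 bp of peak per library, or the whole region inside the gene, cannot change any value, since every peak is longer than 200 bp and the distance rule already keeps regions inside. With a −log10 q of at least 2 there were 428 regions in 374 host genes; epithelium-only regions were 34.2% of the cell-type-only ones, 65.0% of epithelium-only distal regions lay inside genes, 7.75% of hosts had a gene-end peak in both epithelium libraries, and 12.7% of epithelial list genes were hosts. With at least 4 these values were 3, 3, 18.8%, 60%, 0% and 0.606%. With peaks of at least 1 kb they were 1041, 770, 56.6%, 69.8%, 16.9% and 20.6%. Equal numbers of peaks gave an epithelium-only share of 48.5% and a gene-end share of 29.9%, and with the ends of coding genes only 65.6% of epithelium-only distal regions lay inside genes. Leaving out 1 library, which relaxes the rule, gave 3070 to 17815 regions, 1902 to 6266 host genes, epithelium-only shares of 17.6 to 87.2%, shares inside genes of 59.1 to 70.7%, gene-end shares of 34.2 to 41.4% and list shares of 30.3 to 54.5%. No paired analysis was possible because no result comes from a test. Motifs in the regions themselves were not run, since no genome sequence was used here. Depth is unknown, so a region missing from a library may be below its detection.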
